A study of Mus musculus with 2 samples.

Results

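The cells described here are T cells that carried transcripts of Foxp3 and Cxcr3 but none of Il1rl1, which encodes ST2. They were chosen in both libraries from barcodes with at least 500 genes, at least 1000 gene UMIs, under 10% mitochondrial UMIs and at least 1 UMI of Trbc1 or Trbc2. A cell entered with at least 1 raw UMI of Foxp3, at least 1 of Cxcr3 and 0 of Il1rl1. There were 240 such cells, 94 in library 1 and 146 in library 2, among 877 Foxp3+ cells and 12789 T cells. They are called CXCR3+ Treg cells below. The levels of Foxp3, Cxcr3 and Il1rl1 chose the cells and are given only as a description.

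All cells came from untreated wild-type (WT) male C57BL/6J mice aged 8 weeks and were sorted as TCRb+CD3+CD4+ from subcutaneous (SAT), visceral (VAT) and brown (BAT) adipose tissue and from spleen. Each of the 2 libraries is 1 experiment in which 8 hashed samples, 2 per tissue, were sequenced together with 10x 3' chemistry. Fat was digested with collagenase and the spleen only mechanically, so that a difference between fat and spleen cannot be told apart from the digestion. The labels do not say whether the hashed samples are separate animals, and p-values measure only the spread between these libraries or samples, which may be technical. The CXCR3+ Treg cells were set against 106 ST2+ Treg cells (Foxp3+ Il1rl1+ without Cxcr3), against 3387 Foxp3-zero Cxcr3+ cells and against 479 remaining Foxp3+ cells with neither Cxcr3 nor Il1rl1. A cell with 0 UMIs of a gene may still express it, and fewer cells of a type and less RNA per cell cannot be told apart in summed counts.

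Regulatory T (Treg) cells restrain other immune cells and are specified by the transcription factor Foxp3. CXCR3 is the receptor for chemokines that interferon-gamma induces, and its gene is a target of T-bet, the factor of type 1 helper (Th1) cells that Tbx21 encodes. T-bet in Treg cells is known to accompany CXCR3 and their entry into Th1 inflammation, whereas adipose Treg cells with ST2, the receptor for IL-33, are known for Gata3, Klrg1 and amphiregulin (Areg). In mm10 the genes of the rule lie at chrX:7573644-7595245 (Foxp3), chrX:101731535-101734269 (Cxcr3) and chr1:40429570-40465415 (Il1rl1), all protein coding.

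T-bet binds T-box motifs. In windows of the 250 bases upstream of each RefSeq start site (GRCm38.p6), the letters TCACACC or GGTGTGA occurred on either strand for 1039 of 27025 genes (3.84%), 2 of 16 Th1 genes, 1 of 13 Treg core genes and 1 of 17 ST2 genes that had a window. Both Th1 matches are printed because Nkg7 and Xcl1 return in the comparisons, with the motif in capitals, on the gene's own strand, at chr7:43437109-43437137 and chr1:164935693-164935721. The match starts 13 bases upstream of the RefSeq start of Nkg7 and 188 bases upstream of that of Xcl1. In GENCODE M21 the Nkg7 gene begins earlier, at 43437073, so that the printed stretch lies inside its span there. A match describes letters only.
Nkg7: gggagggggtagggaaGGTGTGAgaagaa
Xcl1: ggtctcatgttGGTGTGAacaaggcaaag

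The libraries held 29153747 and 43879975 gene UMIs, and the CXCR3+ Treg cells had medians of 7019.5 and 5071.5 UMIs, the ST2+ Treg cells 6521 and 4304, the remaining Foxp3+ cells 5693 and 4036 and the Foxp3-zero Cxcr3+ cells 6379 and 4592.5. Hashtags of several samples were on 20.2% and 19.2% of CXCR3+ Treg cells, which held 32.7% and 34.8% of their UMIs, against 7.69% and 7.32% of ST2+ Treg cells, 8.65% and 15.9% of Foxp3-zero Cxcr3+ cells and 7.6% and 13% of remaining Foxp3+ cells. Doublets within 1 hashed sample were not identified. A hashtag that separated weakly from background could not show a doublet with another sample. The hashtag of SAT replicate 1 was weak, and 25 of its 575 cells passed a stricter hashtag call. Doublets with that sample may thus be counted as cells of 1 hashed sample. Results are therefore given for all cells, for cells of 1 hashed sample, and as sums per hashed sample. Libraries shared 20 barcodes, none of them between their CXCR3+ Treg cells. Cxcr3 was seen in 34.4% and 32.5% of Foxp3+ cells, against 9.47% and 7.82% of naive-like Foxp3-zero cells of similar depth (medians of 6308 and 4406 against 6601 and 5188.5 UMIs). Among 24 B cell barcodes 0 held Foxp3 or Cxcr3, which allows a share of up to 12.5%. CD4 T cell markers summed to 4517 and 5626 CPM (UMIs of a gene scaled to a common total of all gene UMIs of the class) in CXCR3+ Treg cells. The plasma cell markers Jchain and Sdc1 and the adipocyte markers Adipoq and Plin1 were at 0, as were Ms4a1 and Col3a1. Markers of B cells summed to 14.3 and 20.4 CPM, fibroblasts 5.49 and 0, erythroid cells 165 and 37.9 and CD8 T cells 43.9 and 9.71. Those of NKT cells summed to 7.68 and 8.74 CPM, gamma-delta T cells 4.39 and 1.94 and endothelial cells 38.4 and 44.7. Of these cells, 13.8% and 4.11% held at least 5 UMIs of markers of other cell types, and the 4 myeloid markers summed to 856 and 289 CPM with these cells and 12 and 1.13 CPM without them.

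The CXCR3+ Treg cells held transcripts of Treg and of Th1 genes in the same cells. Of 240 cells, 154 (64.2%) had at least 1 UMI of Ctla4, Il2ra or Ikzf2 together with at least 1 of Ccl5, Nkg7 or Tbx21, 49 had only such a Treg gene, 31 only such a Th1 gene and 6 neither. Cells with both were not counted in the other classes, which had lower median UMIs. In ST2+ Treg cells Ikzf2 was detected in 96.9% and 92.7% and Ccl5 in 35.4% and 22%. Ikzf2, which encodes the Treg factor Helios, was detected in 77.7% of these cells in library 1 and 71.9% in library 2. Ctla4, an inhibitory receptor on which Treg suppression depends, was detected in 74.5% and 50.7%. These shares lay above those of Foxp3-zero Cxcr3+ cells, where Ikzf2 was detected in 19.7% and 18.8% and Ctla4 in 15.6% and 12.7%. Ccl5, a chemokine of effector T cells, was detected in 70.2% and 63.7% of CXCR3+ Treg cells, against 79.2% and 76.3% of Foxp3-zero Cxcr3+ cells. With each cell thinned to 1000 UMIs, Ccl5 was seen in 41.5% and 40.4% of CXCR3+ Treg cells, 10.8% and 12.2% of ST2+ Treg cells and 60.1% and 62.8% of Foxp3-zero Cxcr3+ cells. Tbx21 was sparser, in 29.8% and 20.5% of CXCR3+ Treg cells. Ccl5 and Ikzf2 were found together in 114 cells, Ccl5 and Ctla4 in 95, and Nkg7 and Ctla4 in 63. Among the 166 cells of 1 hashed sample, a count added after those over all cells were seen, 107 (64.5%) had a Treg and a Th1 gene, 42 only a Treg gene and 13 only a Th1 gene, and Ccl5 and Ikzf2 were together in 80. Doublets of cells from the same hashed sample are still among them, as may be doublets with SAT replicate 1. The part of either was not tested.

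At the edge of the rule the cells were thinly supported. Foxp3 had 324 and 268 CPM in CXCR3+ Treg cells, 343 and 369 CPM in ST2+ Treg cells and 330 and 399 CPM in remaining Foxp3+ cells, and Cxcr3 had 260 and 336 CPM in CXCR3+ Treg cells and 315 and 417 CPM in Foxp3-zero Cxcr3+ cells. The median CXCR3+ Treg cell had 2 UMIs of Foxp3 and 2 of Cxcr3, and 51 cells had only 1 of each. Those 51 cells had 250 and 428 CPM of Ikzf2 in libraries 1 and 2, against 701 and 568 CPM in the 91 cells with at least 2 of each. Their Ccl5 was 287 and 1443 CPM, against 1085 and 1094 CPM in the 91 cells. Just outside the rule, the 253 cells with 1 Foxp3 UMI and no Cxcr3 had 96.9 and 407 CPM of Ccl5, and the 1389 cells with 1 Cxcr3 UMI and no Foxp3 had 2215 and 2384 CPM of Ccl5 and 53.2 and 74.5 CPM of Ikzf2. The 51 cells thus differed more between libraries in Ccl5 than the 91 did.

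**Figure D1:**
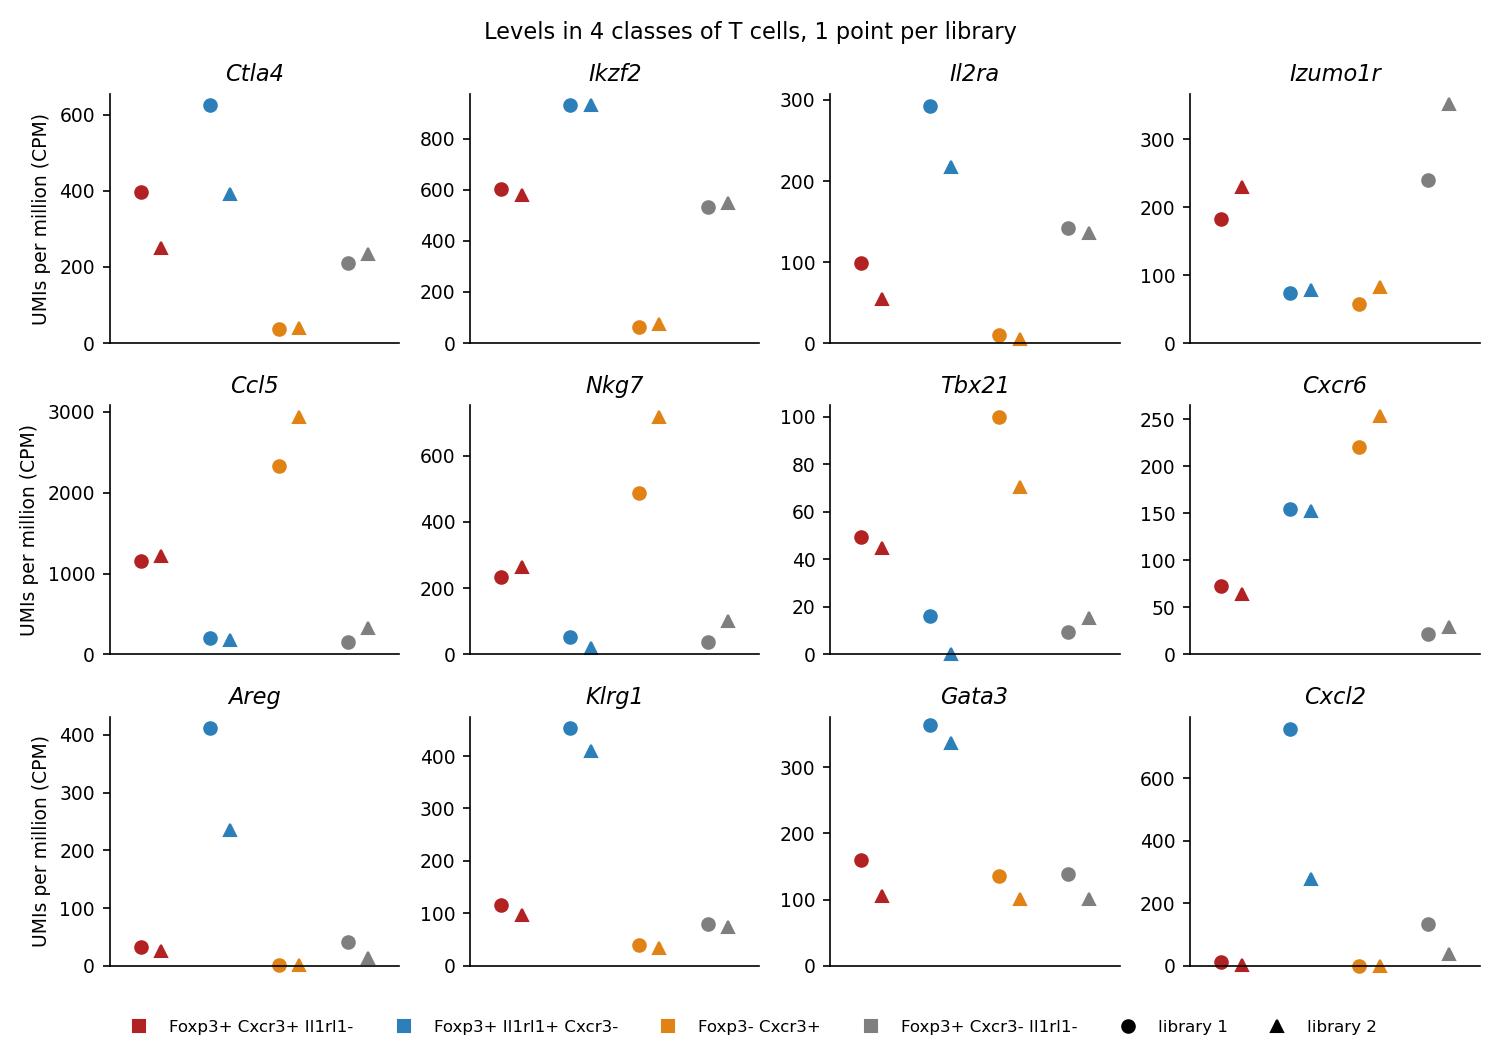
CPM (y axis from 0) of 12 genes in the summed cells of 4 classes, with circles for library 1, triangles for library 2 and no error bars (red CXCR3+ Treg, blue ST2+ Treg, orange Foxp3-zero Cxcr3+ and grey remaining Foxp3+ cells). For Ctla4 and Ikzf2, CXCR3+ Treg cells are below ST2+ Treg cells but nearer to both other Foxp3+ classes than to Foxp3-zero Cxcr3+ cells. For Ccl5, Nkg7 and Tbx21 they lie between the other Foxp3+ classes and Foxp3-zero Cxcr3+ cells.

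Against ST2+ Treg cells, the CXCR3+ Treg cells had more Th1 transcripts and fewer of the ST2 adipose program. Raw UMIs were summed per class and library, and edgeR's quasi-likelihood test on the 8 sums of 4 classes, with the library as a block, called 175 of 8883 genes (1.97%) at an adjusted p under 0.05, 58 higher (0.653%) and 117 lower (1.32%). Ccl5 (chr11:83525778-83530518) had 1158 CPM in library 1 and 1220 in library 2 in CXCR3+ Treg cells, against 209 and 180 CPM in ST2+ Treg cells. The log2 fold change was 2.57 ± 0.21 (SE, adjusted p = 6.8e-06). Nkg7 (chr7:43437073-43438249), a protein of cytotoxic granules, had 235 and 264 CPM in CXCR3+ Treg cells, against 53.6 and 18.4 CPM, a log2 fold change of 2.47 ± 0.34. Both genes were higher in both libraries with no overlap. Tbx21 (chr11:97098071-97115331) had 49.4 and 44.7 CPM in CXCR3+ Treg cells, against 16.1 and 0 CPM in ST2+ Treg cells (2.15 ± 0.49, adjusted p = 0.0345). Of the 18 Th1 genes tested, 6 were higher (Ccl5, Nkg7, Ifng, Ly6c2, Fasl and Tbx21) and 2 lower (Cxcr6 and Hopx), with a median log2 fold change of 1.34, against 0.03 over all genes.

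Cxcr6, the receptor for CXCL16 on tissue T cells, went the other way, with 72.4 and 64.1 CPM in CXCR3+ Treg cells, against 154 and 152 CPM in ST2+ Treg cells (-1.14 ± 0.19). Ifng, the cytokine of Th1 cells, had 106 and 63.1 CPM in CXCR3+ Treg cells, against 21.4 and 13.8 CPM in ST2+ Treg cells. Among cells of 1 hashed sample, where 107 of 7875 genes were called (1.36%), 33 higher (0.419%) and 74 lower (0.94%), Ccl5, Nkg7, Ifng and Cxcr6 kept their calls. Tbx21 there had 2.02 ± 0.49 with an adjusted p of 0.0665, and Ly6c2 1.10 ± 0.88 with an adjusted p of 0.715. In library 2, Ly6c2 had 3.49 CPM in CXCR3+ Treg cells of 1 hashed sample and 154 CPM in those with hashtags of several. Without cells holding at least 5 UMIs of other cell types' markers, an alternative chosen after seeing the data, 215 of 8428 genes were called (2.55%), 89 higher (1.06%) and 126 lower (1.5%), and of the Th1 genes 7 were higher and 2 lower.

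The ST2 adipose list had 0 genes higher and 12 lower of 22 tested, with a median log2 fold change of -1.74. Il1rl1, which defined the comparison class, is not among the tested genes. Cxcl2, a chemokine that attracts neutrophils (chr5:90903871-90905938), had 13.2 and 3.88 CPM in CXCR3+ Treg cells, against 759 and 277 CPM in ST2+ Treg cells (-5.89 ± 0.21, adjusted p = 2.8e-10). Areg (chr5:91139599-91148432), the growth factor amphiregulin, had 32.9 and 26.2 CPM in CXCR3+ Treg cells, against 411 and 235 CPM (-3.38 ± 0.23). Klrg1 (chr6:122270596-122282882), a receptor of terminally differentiated T cells, had 115 and 96.1 CPM in CXCR3+ Treg cells, against 454 and 410 CPM (-1.97 ± 0.14). All 3 genes were lower in both libraries, and the classes did not overlap. Gata3, the factor of type 2 helper cells, had 159 and 105 CPM in CXCR3+ Treg cells, against 363 and 337 CPM in ST2+ Treg cells (-1.34 ± 0.14). Ltb4r1, a leukotriene B4 receptor, was lower by -2.84 ± 0.19. Pcsk1, a prohormone protease, and Penk, the enkephalin precursor, had 1.1 and 0 CPM and 1.1 and 1.94 CPM in CXCR3+ Treg cells, against 75 and 69.2 CPM and 186 and 18.4 CPM in ST2+ Treg cells. In cells of 1 hashed sample 11 of the 22 genes were lower and 0 higher. Of 9 secreted suppressive and repair products 4 were lower (Areg, Penk, Lgals1 and Gzmb) and 0 higher.

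The Treg core genes were split. Of 20 tested, 2 were higher and 7 lower, with a median log2 fold change of -0.58, and in cells of 1 hashed sample 2 were higher and 2 lower, with a median of -0.29. Il2ra, the high-affinity IL-2 receptor chain CD25, had 98.8 and 54.4 CPM in CXCR3+ Treg cells, against 293 and 217 CPM in ST2+ Treg cells (-1.70 ± 0.20). Itgae, the integrin CD103, had 0 and 7.77 CPM, against 44.7 and 55.3 CPM. Ikzf2 (chr1:69531214-69687245) had 604 and 579 CPM in CXCR3+ Treg cells, against 931 and 931 CPM (-0.60 ± 0.11, adjusted p = 0.00919). This difference was -0.33 ± 0.12 with an adjusted p of 0.271 in cells of 1 hashed sample. Ctla4 (chr1:60887000-60915832) did not pass, at 397 and 251 CPM in CXCR3+ Treg cells and 625 and 392 CPM in ST2+ Treg cells (-0.65 ± 0.18, adjusted p = 0.0967). Izumo1r (chr9:14885814-14903949), the folate receptor FR4 of Treg cells, was higher, with 183 and 230 CPM in CXCR3+ Treg cells, against 73.2 and 78.4 CPM (1.43 ± 0.18), as was Il2rb (0.89 ± 0.19).

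Genes of several other lists were called as well. Of 12 S100, annexin and galectin genes, 9 were lower and 0 higher, and 5 were lower in cells of 1 hashed sample. S100a4, a calcium-binding protein of motile cells, had 1156 and 1035 CPM in CXCR3+ Treg cells, against 3392 and 4297 CPM in ST2+ Treg cells (-1.74 ± 0.13). Of 16 immediate early and dissociation genes, a list that tissue digestion is known to affect and whose part in this result was not tested, 10 were lower and 0 higher. Fos was among them at 440 and 286 CPM in CXCR3+ Treg cells, against 1034 and 1194 CPM (-1.55 ± 0.17). The chemokine receptor Ccr2 was lower, with 209 and 163 CPM in CXCR3+ Treg cells, against 409 and 456 CPM. The naive-cell factor Tcf7 was higher, with 180 and 197 CPM, against 60.7 and 96.8 CPM in ST2+ Treg cells (1.46 ± 0.22), but at 1.05 ± 0.29 with an adjusted p of 0.123 in cells of 1 hashed sample. The survival gene Bcl2 was higher in all cells (1.87 ± 0.27) and in cells of 1 hashed sample (2.05 ± 0.38). No cell cycle gene of 14 and no interferon-stimulated gene of 11 was called, though 0 and 3 of them had an unadjusted p under 0.05.

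The classes differed in tissue: of CXCR3+ Treg cells of 1 hashed sample 47% were from SAT and 34.9% from VAT, and of ST2+ Treg cells 25.8% from SAT and 60.2% from VAT. In the 4 VAT samples with at least 10 cells of each class, summed per sample with the sample as a block, 62 of 1345 genes were called (4.61%), 15 higher (1.12%) and 47 lower (3.49%). Ccl5 had 640 to 1060 CPM (median 906) in CXCR3+ Treg cells, against 43.6 to 126 CPM (median 77.4) in ST2+ Treg cells, a log2 fold change of 3.42 (adjusted p = 2.5e-07). Nkg7, too sparse to be tested there, had 104 to 384 CPM, against 0 to 11.5 CPM. Il2ra, Klrg1, Cxcl2 and Cxcr6 were lower in 4 of 4 VAT samples and passed the test, and Izumo1r did not (1.22, adjusted p = 0.202). Areg did not pass (-2.39, adjusted p = 0.0573) and had the smaller value in CXCR3+ Treg cells in 3 of 4 VAT samples, with 168 CPM in CXCR3+ Treg cells and 92.9 CPM in ST2+ Treg cells of VAT replicate 1. So Ccl5 was higher and Cxcl2 lower within VAT as well as over all tissues.

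Against Foxp3-zero Cxcr3+ cells, the CXCR3+ Treg cells had more of the Treg genes and less of the Th1 genes. The CXCR3+ Treg sums are the same as in the comparison above. Here edgeR called 427 of 8883 genes (4.81%), 259 higher (2.92%) and 168 lower (1.89%). Of the 20 Treg core genes 15 were higher and 1, Socs2, lower, with a median log2 fold change of 1.98, against -0.01 over all genes. Ikzf2 had 604 and 579 CPM in CXCR3+ Treg cells, against 63.4 and 75.9 CPM in Foxp3-zero Cxcr3+ cells (3.03 ± 0.11, adjusted p = 4.2e-10). Ctla4 had 397 and 251 CPM, against 38.2 and 38.4 CPM (2.99 ± 0.18), and Il2ra 98.8 and 54.4 CPM, against 10 and 5.56 CPM (3.24 ± 0.21). These Treg genes were many times higher in both libraries. Tnfrsf4, the costimulatory receptor OX40, was higher by 2.70 ± 0.16, Capg, an actin-capping protein, by 2.09 ± 0.11, Izumo1r by 1.52 ± 0.12 and Ikzf4, which encodes Eos, by 3.47 ± 0.36. Lrrc32, which carries latent TGF-beta on Treg cells, was higher by 3.43 ± 0.55 and Itgb8, the integrin chain that activates it, by 3.61 ± 0.51.

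Th1 genes were lower than in Foxp3-zero Cxcr3+ cells: 12 of 18 tested were lower and 0 higher, with a median log2 fold change of -1.05. Ccl5 had 1158 and 1220 CPM in CXCR3+ Treg cells, against 2327 and 2941 CPM in Foxp3-zero Cxcr3+ cells (-1.19 ± 0.16, adjusted p = 2.9e-04). Nkg7 had 235 and 264 CPM, against 488 and 717 CPM (-1.31 ± 0.19), and Tbx21 49.4 and 44.7 CPM, against 99.9 and 70.3 CPM (-0.89 ± 0.21). Every one of these sums lay below both of its comparison class. Xcl1, the chemokine whose motif stretch is printed above, had 42.8 and 34 CPM in CXCR3+ Treg cells, against 166 and 214 CPM (-2.36 ± 0.29). Id2, a factor of effector lymphocytes, had 284 and 224 CPM in CXCR3+ Treg cells, against 735 and 659 CPM (-1.51 ± 0.12), and Cxcr6 72.4 and 64.1 CPM, against 220 and 253 CPM (-1.85 ± 0.14). Ly6c2, a surface protein of effector cells, was lower by -1.96 ± 0.21. Hopx did not pass (-0.21, adjusted p = 0.384). Of 6 cytotoxic granule genes, Ctsw and Klrk1 were lower and none higher, and Gzmb had 47.2 and 79.6 CPM in CXCR3+ Treg cells and 41 and 66.3 CPM in Foxp3-zero Cxcr3+ cells (adjusted p = 0.83).

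Genes of the ST2 adipose list were higher than in Foxp3-zero Cxcr3+ cells although Il1rl1 was at 0 by the rule: 10 of 22 were higher and 0 lower, with a median log2 fold change of 1.18. Areg had 32.9 and 26.2 CPM in CXCR3+ Treg cells, against 1.28 and 1.11 CPM in Foxp3-zero Cxcr3+ cells (4.51 ± 0.37), and was seen in 5.32% and 6.85% of CXCR3+ Treg cells. Klrg1 had 115 and 96.1 CPM in CXCR3+ Treg cells, against 40 and 33 CPM (1.48 ± 0.13). Gata3 did not differ detectably, at 159 and 105 CPM in CXCR3+ Treg cells and 135 and 101 CPM in Foxp3-zero Cxcr3+ cells (0.10 ± 0.12, adjusted p = 0.815). The chemokine receptors Ccr3 (3.31 ± 0.37), Ccr6 (2.53 ± 0.53) and Ccr4 (1.36 ± 0.29) were higher, as were the suppressive cytokine genes Il10 (18.7 and 9.71 CPM in CXCR3+ Treg cells, against 0.214 and 0.428 CPM) and Ebi3, a chain of IL-35 (2.74 ± 0.45). The integrins Itgb1 (-1.15 ± 0.11) and Itga1 (-1.93 ± 0.26), which encodes a chain of a collagen receptor of tissue-resident T cells, were lower. The ST2 genes were not particular to CXCR3+ Treg cells among Foxp3+ cells without Il1rl1. Against remaining Foxp3+ cells 1 of the 22 was higher and 1 lower (315 of 8883 over all genes), with a median log2 fold change of 0.17. Those cells had 41.1 and 14 CPM of Areg and 78.9 and 74.6 CPM of Klrg1.

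Ifngr1, the ligand-binding chain of the interferon-gamma receptor, was higher, with 587 and 588 CPM in CXCR3+ Treg cells, against 350 and 428 CPM in Foxp3-zero Cxcr3+ cells (0.55 ± 0.12). Among inhibitory and costimulatory receptors, Lag3 (chr6:124904361-124911705), a receptor for MHC class II, had 18.7 and 18.5 CPM in CXCR3+ Treg cells, against 4.7 and 3.59 CPM (2.11 ± 0.38), and Cd27 was also higher (0.58 ± 0.12). Cd226, Cd160 and Cd44 were lower, Cd226 at 156 and 102 CPM in CXCR3+ Treg cells, against 299 and 296 CPM (-1.27 ± 0.16). The 4 myeloid markers and the 4 MHC class II genes were also higher. In cells of 1 hashed sample the MHC class II genes were again higher, but of the myeloid markers 0 were higher and Lyz2 was lower (-1.16, adjusted p = 0.0242). Without cells of at least 5 other-type marker UMIs the myeloid markers had too few counts to be tested, and of 3 MHC class II genes tested Cd74 alone was higher.

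In cells of 1 hashed sample 345 of 7875 genes were called (4.38%), 195 higher (2.48%) and 150 lower (1.9%), with 14 Treg core genes higher and 1 lower, 11 Th1 genes lower and 0 higher, and 9 ST2 genes higher and 0 lower. Without cells of at least 5 other-type marker UMIs 423 of 8428 were called (5.02%), 242 higher (2.87%) and 181 lower (2.15%), with 14 Treg core genes higher and 1 lower, 11 Th1 genes lower and 9 ST2 genes higher. The same pattern was seen inside single samples. In 7 hashed samples with at least 10 cells of each class (3 SAT and 4 VAT), 301 of 6975 genes were called (4.32%), 146 higher (2.09%) and 155 lower (2.22%). Ccl5 had 640 to 2184 CPM (median 1046) in CXCR3+ Treg cells, against 2594 to 4350 CPM (median 3106) in Foxp3-zero Cxcr3+ cells, and was lower in 7 of 7 samples (-1.57, adjusted p = 7.8e-08). Nkg7 had 104 to 384 CPM, against 453 to 976 CPM, and the ranges did not overlap either. Ctla4 had 156 to 674 CPM (median 404) in CXCR3+ Treg cells, against 26.8 to 57.3 CPM, and Ikzf2 384 to 1202 CPM (median 606), against 61.9 to 81.8 CPM. Both were higher in 7 of 7 samples, at 3.16 (adjusted p = 1.4e-11) and 3.32 (adjusted p = 4.9e-13).

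**Figure D2:**
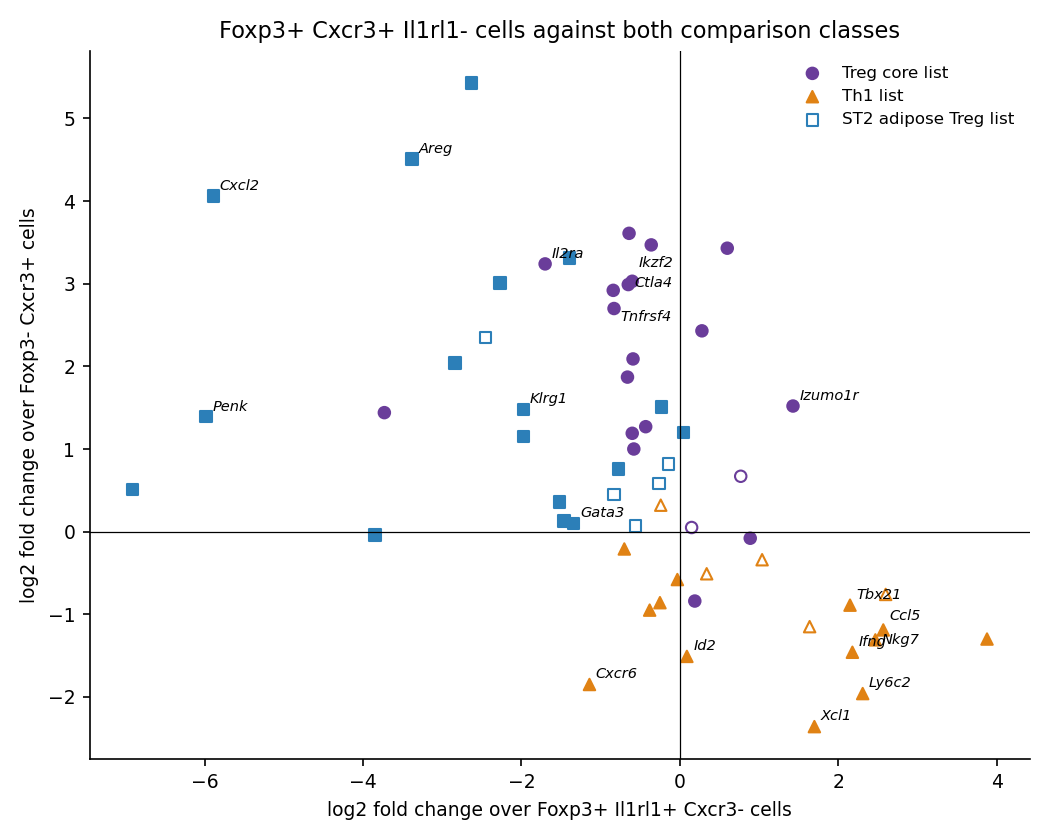
Each point is 1 gene of the Treg core, Th1 or ST2 adipose list, with its log2 fold change in CXCR3+ Treg cells over ST2+ Treg cells on the x axis and over Foxp3-zero Cxcr3+ cells on the y axis, and filled where at least 1 of the comparisons called it. Both axes share the CXCR3+ Treg sums. Ccl5, Nkg7 and Tbx21 lie at lower right, Areg, Cxcl2 and Klrg1 at upper left, and Izumo1r at upper right.

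**Figure D3:**
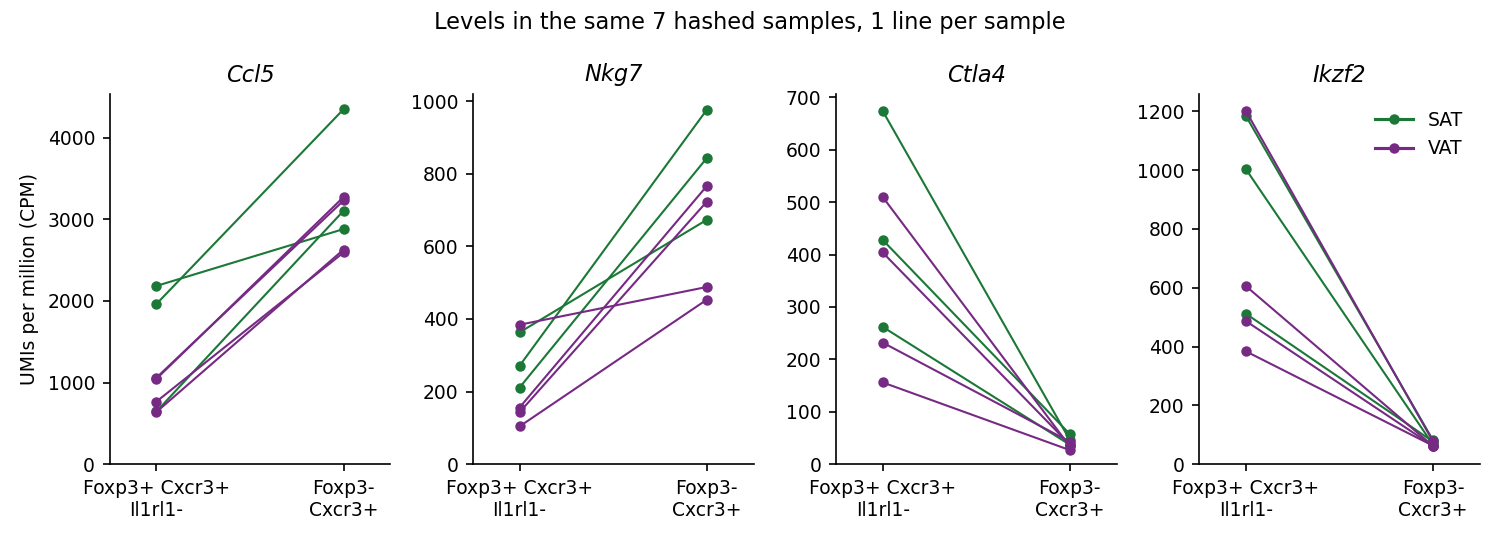
CPM (y axis from 0) of 4 genes in CXCR3+ Treg cells and in Foxp3-zero Cxcr3+ cells of the same 7 hashed samples, with 1 line per sample coloured by tissue and no error bars. Ccl5 and Nkg7 are lower in CXCR3+ Treg cells in 7 of 7 samples, and Ctla4 and Ikzf2 are higher in 7 of 7.

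Against the remaining Foxp3+ cells, which had neither Cxcr3 nor Il1rl1, the CXCR3+ Treg cells had more Th1 transcripts and fewer of naive and recirculating cells. Again with the same CXCR3+ Treg sums, 315 of 8883 genes were called (3.55%), 216 higher (2.43%) and 99 lower (1.11%). Of 18 Th1 genes 13 were higher and 0 lower, with a median log2 fold change of 1.58, against 0.01 over all genes. Ccl5 had 1158 and 1220 CPM in CXCR3+ Treg cells, against 155 and 328 CPM in remaining Foxp3+ cells (2.28 ± 0.18, adjusted p = 9.0e-06). Nkg7 had 235 and 264 CPM, against 38.6 and 102 CPM (1.80 ± 0.24), Tbx21 49.4 and 44.7 CPM, against 9.23 and 15.5 CPM (1.84 ± 0.34), and Id2 284 and 224 CPM, against 74.7 and 99.7 CPM (1.47 ± 0.15). In cells of 1 hashed sample, where 388 of 7875 genes were called (4.93%), 217 higher (2.76%) and 171 lower (2.17%), 10 Th1 genes were higher and 0 lower. Without cells of at least 5 other-type marker UMIs 309 of 8428 were called (3.67%), 193 higher (2.29%) and 116 lower (1.38%), and 13 Th1 genes were higher and 0 lower.

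Calls in the Treg core list went in both directions, with 3 genes higher and 3 lower of 20, against 315 of 8883 over all genes. The median log2 fold change was 0.01, and 10 of the 20 had an unadjusted p under 0.05. Ikzf2 had 604 and 579 CPM in CXCR3+ Treg cells and 531 and 549 CPM in remaining Foxp3+ cells (0.08 ± 0.11, adjusted p = 0.785). Ctla4 had 397 and 251 CPM and 211 and 235 CPM (0.45 ± 0.18, adjusted p = 0.19). Il2ra was lower, with 98.8 and 54.4 CPM in CXCR3+ Treg cells, against 142 and 136 CPM (-0.96 ± 0.18), and Capg was higher (0.64 ± 0.12). Gpr83, a receptor of resting Treg cells, had 8.78 and 9.71 CPM in CXCR3+ Treg cells, against 32.7 and 43.6 CPM (-2.09 ± 0.41). For Ikzf2 and Ctla4 a difference was thus not detectable over all cells, which does not show that the classes were alike. Without cells of at least 5 other-type marker UMIs 5 Treg core genes were higher and 3 lower, with Ctla4 but not Ikzf2 among those called. In cells of 1 hashed sample 3 were higher and 2 lower, and neither Ctla4 nor Ikzf2 was called.

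Of 14 naive and recirculating genes 10 were lower and 0 higher. Ccr7, a lymph node homing receptor, had 54.9 and 92.3 CPM in CXCR3+ Treg cells, against 165 and 145 CPM in remaining Foxp3+ cells (-1.13 ± 0.21), and Satb1, a chromatin organiser of naive T cells, 105 and 131 CPM, against 281 and 205 CPM (-1.08 ± 0.17). Ccr2, a receptor of inflamed tissue, was higher, with 209 and 163 CPM in CXCR3+ Treg cells, against 75.5 and 77.5 CPM (1.21 ± 0.14). Of 12 S100, annexin and galectin genes 9 were higher and 0 lower, with Lgals1 (galectin-1) at 810 and 1230 CPM in CXCR3+ Treg cells, against 452 and 512 CPM. Prdm1, which encodes the effector factor Blimp-1, was higher by 1.27 ± 0.28, and Fgl2, a secreted suppressive product, by 1.30 ± 0.19.

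Cell cycle genes were higher, 7 of 14 and 0 lower, with Mcm5, a replication helicase subunit, at 20.9 and 40.8 CPM in CXCR3+ Treg cells, against 6.72 and 7.38 CPM (2.09 ± 0.44). Of the Mcm5 UMIs of CXCR3+ Treg cells 89.5% and 78.6% lay in 5 cells per library. A UMI of a cycling gene was found in 33% and 20.5% of CXCR3+ Treg cells, against 12.9% and 7.79% of remaining Foxp3+ cells. With such cells left out 7 genes of the list could be tested and 1, Hmgb2, was called. Those cells were chosen by UMIs of Mki67, Top2a, Cdk1 or Rrm2. Because Top2a, Cdk1 and Rrm2 are in the list itself, no conclusion is drawn from that count. Without cells of at least 5 other-type marker UMIs 3 were called (Hmgb2, Top2a and Rrm2) and Mcm5 was not (1.15, adjusted p = 0.215), while in cells of 1 hashed sample 9 were, Mcm5 among them. In both libraries CXCR3+ Treg cells lay between the remaining Foxp3+ cells and the Foxp3-zero Cxcr3+ cells in Ccl5, Nkg7, Tbx21, Ifng, Cxcr6 and Id2. For these 6 genes the order was the same in cells of 1 hashed sample. Ly6c2 lay between those classes in all cells but not in cells of 1 hashed sample of library 2, with 3.49 CPM in CXCR3+ Treg cells, against 6.27 CPM in remaining Foxp3+ cells.

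The tissue makeup of these classes also differed. Of CXCR3+ Treg cells of 1 hashed sample 10.8% were from spleen, against 45.3% of remaining Foxp3+ cells. In sums per hashed sample, from 3 SAT and 4 VAT samples, 8 of 1644 genes were called (0.487%), 4 in each direction (0.243%), and all 8 are named here. Ccl5 was higher (1.73 ± 0.30, adjusted p = 0.00682), as were Hmgb2 (1.13), AW112010 (0.91) and Gimap7 (0.91), and S1pr1 (-1.28), Klf2 (-1.29), Jun (-1.30) and Rel (-1.68) were lower. Ccl5 had 640 to 2184 CPM in CXCR3+ Treg cells, against 163 to 745 CPM in remaining Foxp3+ cells, and was higher in 6 of 7 samples. Nkg7 had 104 to 384 CPM, against 13.4 to 400 CPM, and did not pass (0.88, adjusted p = 0.387). S1pr1, the receptor by which T cells leave tissue, and Klf2, the factor that induces it, were thus lower within fat depots too. In these sums 1 of 5 Th1 genes tested was higher, 2 of 8 naive genes were lower, and 0 of 11 S100, annexin and galectin genes were called. The 5 immediate early genes called higher over the libraries were not called in these sums, Dusp1 having -0.50 there and 0.60 ± 0.14 over the libraries.

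Over the 8883 genes, 8 (0.0901%) were called higher in CXCR3+ Treg cells than in both ST2+ Treg cells and Foxp3-zero Cxcr3+ cells, which share the CXCR3+ Treg sums. Of these, 7 had 22.9% to 99.6% of their UMIs in 1 cell per library. Lyz2, the lysozyme of macrophages, had 674 and 267 CPM in CXCR3+ Treg cells, with 93.8% and 99.6% of its UMIs in 1 cell, and Lpl, lipoprotein lipase, 94.4% and 85.7%. Cd74, the invariant chain of MHC class II, had 77.2% and 75.7% in 1 cell, Mpeg1 56.7% and 53.8%, Fcer1g 45.5% and 78.8%, Ms4a6c 37.7% and 40% and Ctss 27.7% and 22.9%. The myeloid and Cd74 values of this class thus rested on few cells. Izumo1r, the other gene, had 10.2% and 5.06% of its UMIs in its top cell. It was not highest in CXCR3+ Treg cells, with 183 and 230 CPM there and 240 and 352 CPM in remaining Foxp3+ cells. Leaving out cells with at least 5 UMIs of other cell types' markers, 6 of 8428 genes (0.0712%) were higher than in both classes, of which 1 was shared with the 8. They were Izumo1r (1.62 and 1.62), Lag3 (8.56 and 2.04), Iigp1 (1.54 and 1.32), an interferon-inducible GTPase, Il21r (0.85 and 0.65), Cd27 (0.64 and 0.71) and Samhd1 (0.49 and 0.97), an interferon-inducible nucleotidase, each pair being log2 fold changes over ST2+ Treg cells and over Foxp3-zero Cxcr3+ cells. Over all cells, ST2+ Treg cells held only 1 and 0 UMIs of Lag3, and 52.9% and 26.3% of its UMIs in CXCR3+ Treg cells lay in 1 cell. Cd27 had 235 and 247 CPM in CXCR3+ Treg cells and 305 and 314 CPM in remaining Foxp3+ cells. Remaining Foxp3+ cells had lower values of Lag3 (7.55 and 11.1 CPM) and Iigp1 (36.9 and 56.1 CPM). Il21r had 130 and 121 CPM in CXCR3+ Treg cells and 124 and 81.2 CPM in remaining Foxp3+ cells. Lag3, Il21r and Cd27 were not called between these classes. In the 7 hashed samples with both classes, Samhd1 had medians of 425 and 513 CPM and was higher in CXCR3+ Treg cells in 4.

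**Figure D4:**
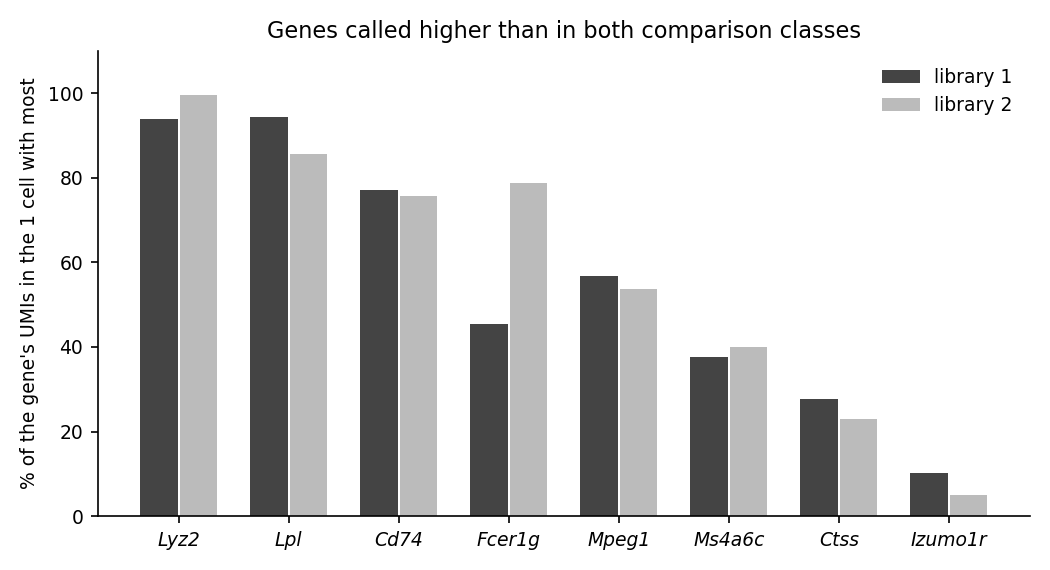
For the 8 genes called higher than in both comparison classes, the share of the gene's UMIs in CXCR3+ Treg cells that lay in the 1 cell with most of them (y axis, percent, from 0), per library. Lyz2 reaches 93.8% and 99.6%, and Izumo1r 10.2% and 5.06%.

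Lower than in both classes were 5 genes (0.0563%): Cxcr6, Cd44, Anxa1, Ahnak and Nebl. Cd44, the hyaluronan receptor of memory T cells, had 117 and 80.6 CPM in CXCR3+ Treg cells, against 222 and 138 CPM in ST2+ Treg cells (-0.88 ± 0.20) and 163 and 140 CPM in Foxp3-zero Cxcr3+ cells (-0.69 ± 0.16). Anxa1, annexin A1, had 67 and 57.3 CPM, against 130 and 189 CPM (-1.21 ± 0.23) and 136 and 122 CPM (-1.11 ± 0.17). The remaining Foxp3+ cells were lower still, with 47.8 and 53.9 CPM of Cd44, 21 and 11.1 CPM of Anxa1 and 21.8 and 28.8 CPM of Cxcr6. Against those cells Cxcr6, Cd44, Anxa1 and Ahnak were called higher in CXCR3+ Treg cells. With high-marker cells left out 8 genes (0.0949%) were lower than in both, of which 4 were shared with the 5. Ahnak was no longer among them, and Hspa1a, Hspa1b, Tagln2 and Crip1 were added.

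CXCR3+ Treg cells made up a larger share of Foxp3+ cells in fat than in spleen, with the highest mean in SAT. Among cells of 1 hashed sample, 78 of 177 Foxp3+ cells of SAT, 58 of 208 of VAT, 12 of 78 of BAT and 18 of 192 of spleen were CXCR3+ Treg cells. The shares of the 4 samples were 55.1%, 25.8%, 45% and 43.9% in SAT, 22.6%, 25%, 34.8% and 26.2% in VAT, 10.7%, 12.5%, 20% and 21.1% in BAT and 18.5%, 6%, 8.2% and 9.26% in spleen. The means were 42.4% ± 12.2 in SAT, 27.2% ± 5.3 in VAT, 16.1% ± 5.22 in BAT and 10.5% ± 5.52 in spleen (SD, n = 4 each). SAT and VAT overlapped in 1 sample, while each SAT and VAT sample was above every BAT and spleen sample. Fat exceeded spleen by 18.1 percentage points on average, by 13 in experiment 1 and by 23.1 in experiment 2 (two-sided exact permutation test within experiments, p = 0.0268, where 0.00128 is the smallest possible). Without 1 spleen replicate the difference was 14.9 to 21.2 points, with exact permutation p of 0.0561 to 0.133 depending on which of the 4 was left out.

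Over the 6 pairs of tissues, the differences were 15.3 points for SAT over VAT, 26.4 for SAT over BAT, 31.9 for SAT over spleen, 11.1 for VAT over BAT and 16.7 for VAT over spleen. Each of these 5 had p = 0.0556 in the two-sided exact permutation test, the smallest that 2 against 2 samples in each of 2 experiments allow, and 0.0667 after Benjamini-Hochberg adjustment. BAT minus spleen was 5.57 points (exact permutation p = 0.222), with -0.652 in experiment 1 and 11.8 in experiment 2. The hashtag of SAT replicate 1, the highest sample, separated weakly from background, and without this sample the SAT minus VAT difference was 7.96 points (exact permutation p = 0.111) and fat minus spleen 15.1 points (exact permutation p = 0.0153). With cells thinned to 1000 UMIs, 11 of 69 Foxp3+ cells of SAT (15.9%), 8 of 76 of VAT (10.5%), 4 of 23 of BAT (17.4%) and 0 of 63 of spleen, which allows up to 4.76%, were CXCR3+ Treg cells, so that BAT was no longer below SAT and VAT.

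**Figure D5:**
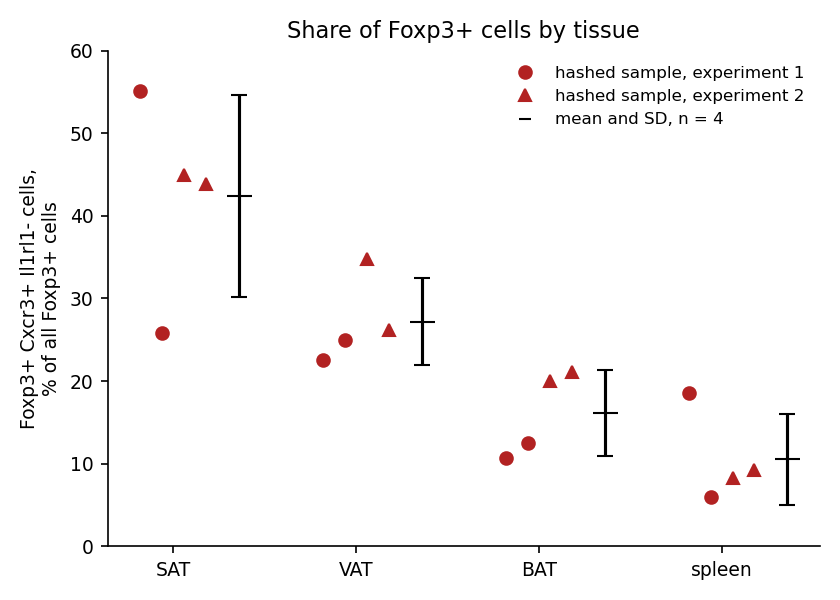
Share of Foxp3+ cells that were CXCR3+ Treg cells (y axis, percent, from 0) in each hashed sample of SAT, VAT, BAT and spleen, with circles for experiment 1 and triangles for experiment 2. Bars give the mean and SD of 4 samples, 42.4% ± 12.2 in SAT and 10.5% ± 5.52 in spleen.

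CXCR3+ Treg cells of SAT were compared with those of VAT in 3 and 4 samples with at least 10 such cells. With the experiment as a block, edgeR called 0 of 2010 genes (0%) and DESeq2 0, with 106 genes at an unadjusted p under 0.05. Ccl5 had 2184, 646 and 1963 CPM in SAT and 640, 767, 1060 and 1046 CPM in VAT (0.82 ± 0.32, adjusted p = 0.84 by edgeR). Of the SAT samples, 2 lay above the VAT range and 1 within it. Hspa8, a constitutive heat shock protein, had 2639, 2597 and 1941 CPM in SAT and 1520, 1264, 1498 and 1530 CPM in VAT (0.68 ± 0.16). These groups did not overlap, but the smallest adjusted p by edgeR over all 2010 genes was 0.74. Samples held 11 to 27 CXCR3+ Treg cells, so that differences in most genes were not detectable at this depth. A test of whether CXCR3+ Treg cells differed from Foxp3-zero Cxcr3+ cells unequally in SAT and VAT called 0 of 6975 genes, with 292 at an unadjusted p under 0.05 and a smallest adjusted p of 0.0652 by edgeR.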

How the data were processed

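Per the file headers, the deposited matrices are raw UMI counts per gene and barcode from Cell Ranger 6.1.0, and the same matrices hold the hashtag antibody counts. The submitters' processing notes name the mm10 build, bcl2fastq and Seurat. Of 16724 barcodes 12789 passed the filters given above. Cells were assigned to hashed samples by a mixture of hashtag states fitted by expectation-maximisation (posterior 0.95). Hashtags assigned 166 CXCR3+ Treg cells to 1 sample, 47 to several and left 27 unresolved. Counts were summed per class and library and tested with edgeR 4.0.16 (quasi-likelihood, TMM, filterByExpr with a minimum count of 10, library as block, Benjamini-Hochberg adjustment at 0.05) in R 4.3.3, and checked on simulated data. The block pairs classes because the cells of a library were sequenced together as 1 experiment. The fit had 8 sums and 3 residual degrees of freedom. CPM were computed from these sums. DESeq2 1.42.0, other filters, thinning, cells of 1 hashed sample and sums per hashed sample were alternatives. Shares of cells carry counting error only.

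The genes named are the largest rises and falls per comparison (at least 20 CPM in the higher class and the same sign in both libraries), up to 4 genes per list by smallest p, and genes called against both classes. Other members of the lists, and the genes called per hashed sample, are named after their values were seen. The cells, gene lists and tests were chosen with earlier results of these data known. Gene positions are those of GENCODE M21. A few genes are not reported here.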

Additional observations from a re-analysis of the deposited data

Results flagged for a closer look

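Hspa8, a constitutive heat shock protein, had 1264 CPM (122 UMIs) in CXCR3+ Treg cells of VAT replicate 2, below the other VAT samples at 1498 to 1530 CPM. By the gap rule used, chance flags about 1 in 20 groups, and 20 groups of 4 samples were examined. A further 52 Foxp3+ cells held both Cxcr3 and Il1rl1 and so entered none of the comparisons, although 30 and 22 such cells were present in libraries 1 and 2. Their Ccl5 was 662 and 739 CPM, between the 1158 and 1220 CPM of CXCR3+ Treg cells and the 209 and 180 CPM of ST2+ Treg cells, a difference that was not tested.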

How the results depend on the processing

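Counts of called genes moved by over 1.5 times under several alternatives, and the causes were not tested unless stated. The number of genes tested also changed with the setting, from 8883 in the main fit to 7307 without cells of any other-type marker. These counts are therefore not shares and do not compare directly. With no block for the library, which pairs the classes of 1 experiment, 41 genes were called against ST2+ Treg cells, 94 against Foxp3-zero Cxcr3+ cells and 12 against remaining Foxp3+ cells, and 0 for SAT against VAT, and of the named genes called with the block 22 of 60, 36 of 80 and 9 of 66 kept their call. Without the filter on low counts the numbers were 368, 683, 610 and 65, and in cells thinned to 1000 UMIs, which hold fewer counts, 39, 114 and 66 for the first 3. Against ST2+ Treg cells, cells of 1 hashed sample gave 107, cells without any other-type marker 268 and sums per hashed sample 62. DESeq2 gave 248 against Foxp3-zero Cxcr3+ cells. Against remaining Foxp3+ cells, at least 2 Foxp3 UMIs gave 83, cells without any other-type marker 198 and sums per hashed sample 8. Leaving out 1 sample gave 0 to 3 calls for SAT against VAT, with 1 without SAT replicate 1, 3 without SAT replicate 3 and 2 without SAT replicate 4. Leaving out a library left no residual degrees of freedom, and the named called genes (60, 80 and 66) kept their sign in each library. For the largest rises and falls among them this was required by the choice. Over all called genes, the sign was the same in both libraries for 173 of 175 against ST2+ Treg cells. It was the same for 421 of 427 against Foxp3-zero Cxcr3+ cells and 308 of 315 against remaining Foxp3+ cells.

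In thinned cells the shares turned round for SAT minus BAT (-3.22 points) and VAT minus BAT (-7.95 points). Fat minus spleen was 14.9 to 21.2 points without 1 sample. Signs of log2 fold changes turned round against ST2+ Treg cells for Lyz2 (-1.43, cells of 1 hashed sample), Cd74 (-0.41, high-marker cells left out) and C1qa (10.52, cycling cells left out, a gene with few counts). Against Foxp3-zero Cxcr3+ cells they turned for C1qa (-0.14) and Lyz2 (-1.16) in cells of 1 hashed sample, for Fcer1g (-1.62), H2-Ab1 (-2.35) and Ms4a6c (-0.27) without high-marker cells, for Ms4a6c (-0.04) without any-marker cells and for Mt3 (0.44) without cycling cells. Against remaining Foxp3+ cells they turned for Cd74 (-1.53), H2-Ab1 (-5.61) and H2-Eb1 (-3.40) without high-marker cells, Gsn (0.25) without any-marker cells, Mrc1 (-3.56) in cells of 1 hashed sample, Xcl1 (-0.32) in thinned cells, and Dusp1 (-0.50), Fosb (-0.33), Ier2 (-0.06), Junb (-0.22) and Izumo1r (0.11) in sums per hashed sample. Each class has 1 sum per library, and 11 to 27 CXCR3+ Treg cells in the hashed samples compared limit what can be detected.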
